A study of Mus musculus with 6 samples.

Results

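The cytosolic ribosomal protein genes of mouse synovial fibroblasts (SFs), connective tissue cells of the joint lining, were examined for their level, their share of each library and their response to amisulpride, an antipsychotic drug and antagonist of dopamine and serotonin receptors. Members were chosen by name alone, as every protein-coding gene of the deposited table whose symbol is Rps, Rpl or Rplp followed by its number and at most 1 of the letters a, l or x. The rule gave 80 of the 49548 genes in the table, of which 30 encode small subunit proteins, 47 large subunit proteins and 3 the stalk, and they lie on 19 chromosomes. All SFs came from the ankle joints of hTNFtg mice, which carry a human TNF transgene and develop inflammatory arthritis, at an age of 8 weeks on a mixed CBA and C57BL/6J background, and cells bearing CD45 were depleted from the cultures. The promoter that drives the transgene and the cells in which it acts were not given in the sources used here. The untreated group had 3 libraries (the labels give no treatment, whereas the methods of the study speak of vehicle), and the amisulpride group had 3 libraries from SFs given 500 μM of the drug for 48 hours in culture. Transcripts were measured by 3′ mRNA sequencing, which reads near the end of each transcript, so that the number of reads of a gene is not expected to grow with its length.

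The ribosome is built from ribosomal RNA and a fixed set of ribosomal proteins, most of which are needed in a single copy in each particle, and the genes for these proteins are transcribed strongly in every nucleated cell. Their messenger RNAs begin with a run of pyrimidines, the 5′ terminal oligopyrimidine (TOP) tract, through which mTORC1 signalling and the RNA-binding protein LARP1 control their translation. Control of this kind acts on the use of the messenger RNA by ribosomes, and a measurement of transcript levels does not record it.

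The TOP tract is the sequence these genes are known to share, so the annotated starts were inspected for it. Of the 80 genes, 59 had a promoter in the RefSeq table (GRCm38.p6). A tract was counted when the start base was C and at least 4 pyrimidines followed, read on the strand of the gene only. It was present at the annotated start in 13 of the 59 genes (22.0%), against 3.01% of the 27025 genes in the table. When the tract was allowed to begin within 10 bases on either side of the annotated start, 38 of the 59 genes (64.4%) held it, against 34.4% of all genes. Windows of 30 bases, from 10 bases before the start, are shown for 4 genes with the tract at the start and for 4 whose levels are described below and which had none there. Capitals mark the tract.
Rplp2 (chr7:141447641-141447670, plus strand): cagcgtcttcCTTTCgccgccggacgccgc
Rps27 (chr3:90213629-90213658, minus strand): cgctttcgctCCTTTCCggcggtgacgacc
Rpl38 (chr11:114668570-114668599, plus strand): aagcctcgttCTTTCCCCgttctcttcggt
Rpl15 (chr14:18270967-18270996, minus strand): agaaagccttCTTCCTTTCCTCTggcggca
Rps9 (chr7:3704031-3704060, plus strand): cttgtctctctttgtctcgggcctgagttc
Rpl13a (chr7:45128726-45128755, minus strand): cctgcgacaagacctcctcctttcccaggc
Rpl27a (chr7:109519185-109519214, plus strand): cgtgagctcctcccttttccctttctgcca
Rps23 (chr13:90923112-90923141, plus strand): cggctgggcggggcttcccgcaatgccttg
In the last 4 windows a tract of the same kind began within 10 bases of the annotated start but not at it. These matches describe letters at annotated starts, and the start used in SFs was not measured.

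The libraries differed in depth and in composition. Approximate depth was 3.63 and 4.71 M reads in untreated replicates 2 and 3 and 4.40, 2.94 and 2.52 M reads in amisulpride replicates 1 to 3, and it could not be determined for untreated replicate 1. Of the variance, 37.1% fell on the first principal component, which placed amisulpride replicate 3 at 73.9 and the other libraries between -38.2 and 10.4. All 12 fibroblast markers examined passed the filter on low values, with a summed level of 45820 to 61143 normalised counts in untreated libraries and 53210 to 92504 in treated ones, the highest being amisulpride replicate 3. Macrophage and monocyte markers, 8 of 9 of which passed the filter, summed to 2124 to 3782 and 1963 to 3848. Of these 8, 4 had a positive and 4 a negative log2 fold change, with a median of -0.04. Cd14 (log2 fold change -1.74) and Csf1r (-1.01) were lower past the study thresholds, as were 3.01% of all genes tested. Endothelial, T and B cell and mast cell markers summed to at most 3 in any library, skeletal muscle markers to 11 to 47 and chondrocyte markers to 3 to 12. In such bulk samples fewer cells of a type and less RNA per cell cannot be told apart.

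As a group, ribosomal protein transcripts took 5.93%, 4.61% and 4.99% of the library total in untreated SFs and 4.18%, 5.11% and 6.12% in amisulpride-treated SFs. The group means were 5.18% ± 0.682 and 5.13% ± 0.972 (SD, n = 3), which differed by -0.0454 percentage points. The lowest and the highest library were both treated ones, amisulpride replicates 1 and 3, and the 3 untreated values lay between them. The share thus varied more within the treated group than between the groups. The difference was 0.434 percentage points without amisulpride replicate 1 and -0.538 without amisulpride replicate 3.

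**Figure D1:**
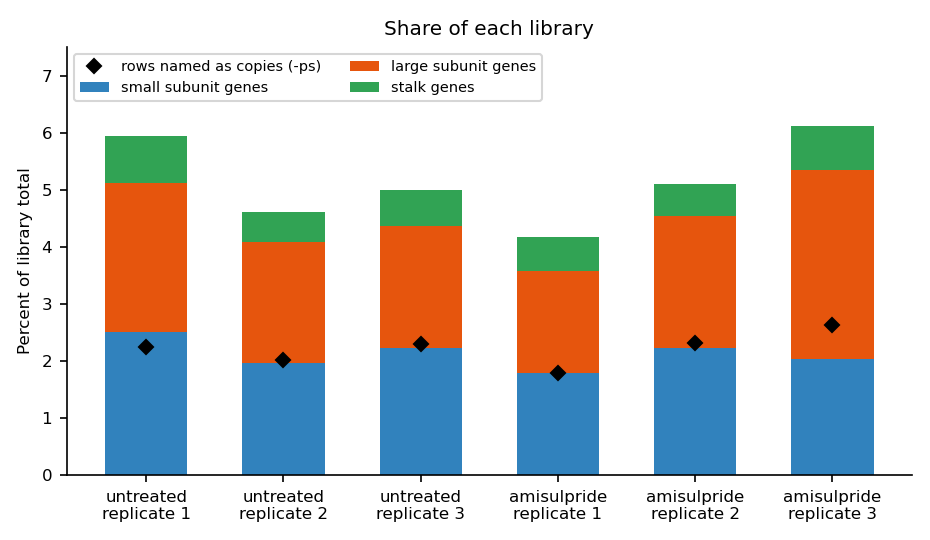
Percent of the library total (y axis) taken by ribosomal protein genes in each of the 6 libraries (x axis), with small subunit, large subunit and stalk genes stacked as bars and rows named as pseudogene copies drawn as diamonds. The bars end between 4.18% (amisulpride replicate 1) and 6.12% (amisulpride replicate 3), and the untreated bars lie within that range.

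Small subunit genes held 2.51%, 1.96% and 2.23% of the untreated libraries and 1.79%, 2.22% and 2.04% of the treated ones. Large subunit genes held 2.60%, 2.12% and 2.14% against 1.78%, 2.31% and 3.31%. The 3 stalk genes, which form the flexible arm of the large subunit that recruits the elongation factors, held 0.819%, 0.533% and 0.628% against 0.607%, 0.571% and 0.774%. The groups overlapped for each of the 3 classes. Small subunit genes made up 42.3% to 44.7% of the ribosomal protein reads in 5 libraries and 33.3% in amisulpride replicate 3. In that library Rpl27a alone took 14.1% of them, against 4.45% to 5.26% elsewhere.

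Levels differed widely between genes, although most of their products stand in equal number in the particle. The highest mean over the 6 libraries was that of Rplp1 and the lowest among the genes tested that of Rpl6l, which had 139, 130 and 118 normalised counts in the untreated SFs and 93, 149 and 186 in treated ones. The median gene had 1915, 1652 and 1859 normalised counts in the untreated libraries and 1476, 1896 and 2256 in the treated ones. Because only the 3′ end of each transcript was read, these levels were not divided by length.

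**Figure D2:**
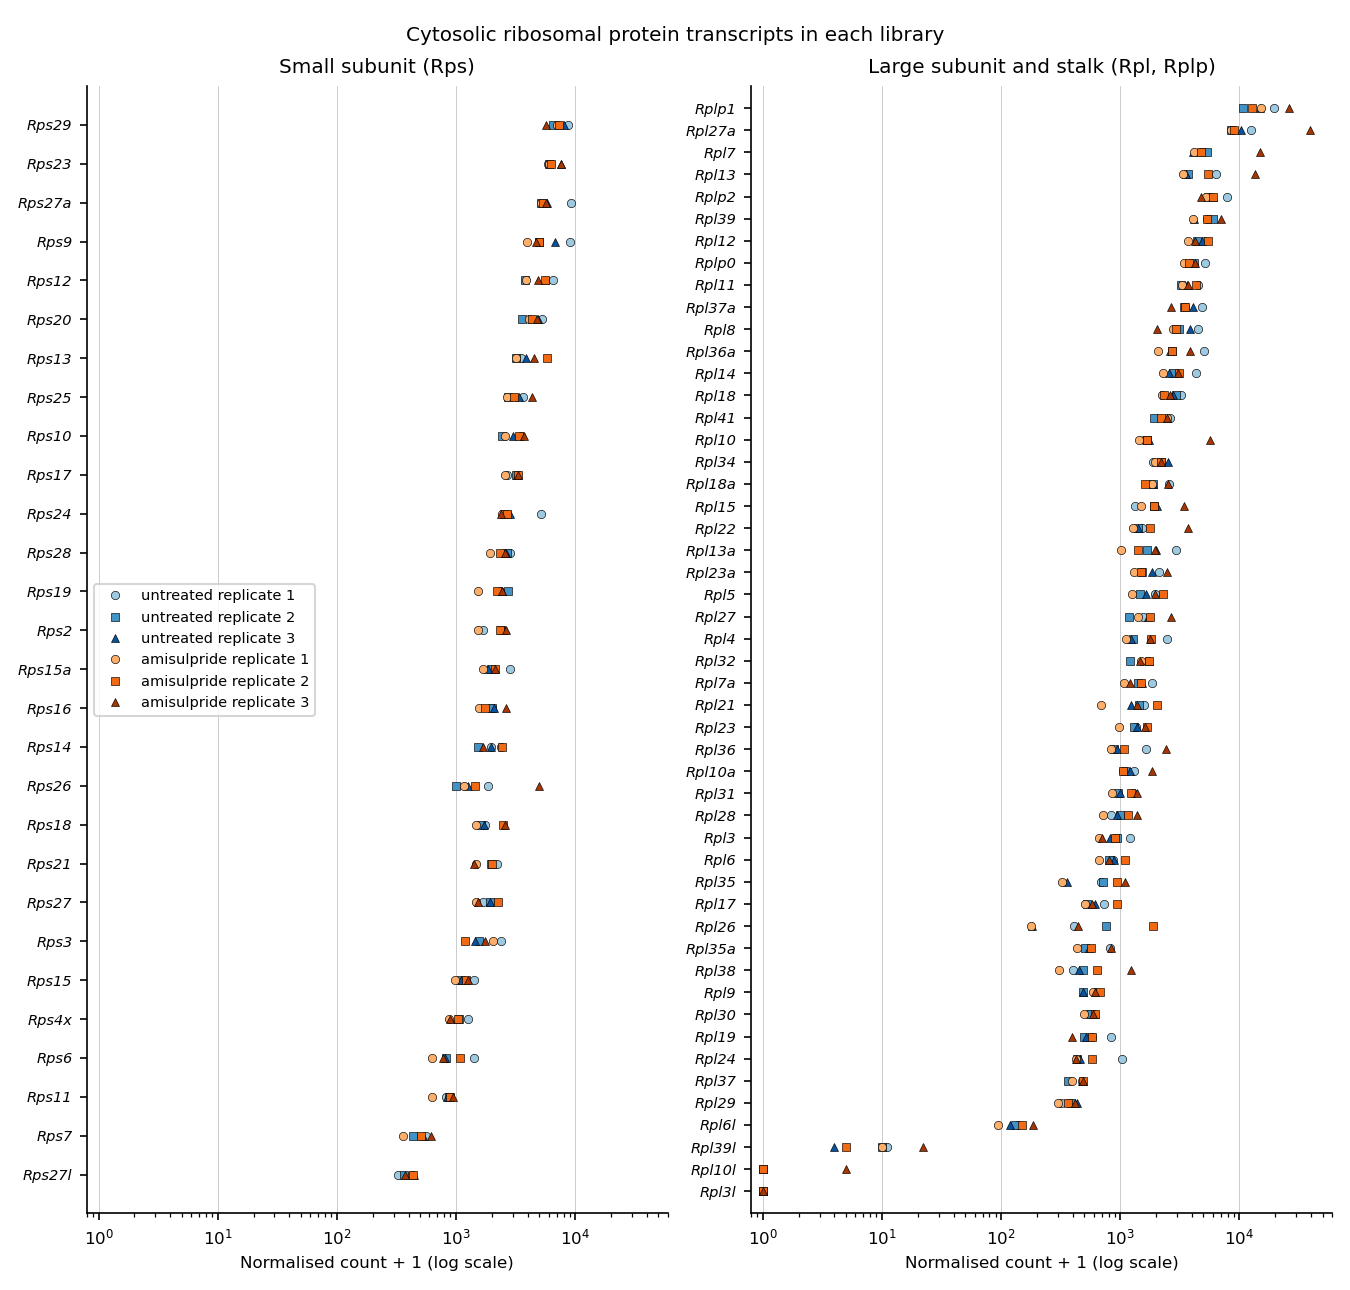
Normalised count + 1 on a log axis (x) for 78 of the 80 genes (y), ordered by mean level, with 1 symbol per library, blue for untreated and orange for amisulpride. The libraries of both groups are intermixed for most genes, and Rpl27a, Rpl7, Rpl13, Rpl10, Rpl22 and Rps26 stand out by a single high value from amisulpride replicate 3.

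The tests of single genes were carried out with limma over all 12614 genes that passed the filter, and 77 of the 80 genes were among them. Past the study thresholds, which ask for a log2 fold change of 1 or more in either direction and for p under 0.05 before adjustment, stood 0 of the 77 genes in either direction, against 2.69% of all genes tested that were higher and 3.01% that were lower. The number with an adjusted p-value under 0.05 was also 0, against 0.0951% and 0.19% of all genes. At an unadjusted p-value under 0.05 the count remained 0 in each direction, against 5.11% and 5.77%, and the lowest p-value of any member was 0.0596 (limma). The same tests with the replicate number as a block gave 0 calls by each of these rules. Without amisulpride replicate 1 there were 4 genes higher at an unadjusted p-value under 0.05, and 1 of them stood past the study thresholds. In that setting 13.2% of all 12328 genes tested had an unadjusted p-value under 0.05 in either direction, and 485 were higher past the study thresholds.

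The median log2 fold change of the 77 genes was -0.04, with quartiles of -0.20 and 0.14 and a range of -0.61 to 0.62. Over all genes tested it was 0.00 with quartiles of -0.31 and 0.32, and over the 5580 genes with a mean of at least 100 the quartiles were -0.25 and 0.27. By sign alone, 33 genes were higher and 44 lower in treated SFs, where 50.1% of all genes were higher and 49.9% lower. Small subunit genes had a median of -0.07, with 9 higher and 21 lower, and large subunit genes a median of 0.03, with 23 higher and 21 lower. The split by sign moved with single libraries, to 52 higher and 25 lower without amisulpride replicate 1 and to 14 higher and 63 lower without amisulpride replicate 3. No direction of the group can therefore be read from these 6 libraries.

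The size of change that the data leave room for was given by the 95% intervals. For 59 of the 77 genes (76.6%) the whole interval lay within a log2 fold change of 1 in either direction, as it did for 40.7% of all genes tested. Over the members the interval bounds ran from -1.29 to 2.05, and the highest belonged to Rpl26, a large subunit protein at the mouth of the exit tunnel. Rpl26 was singled out after its values were seen, which were 406, 754 and 180 in untreated SFs and 177, 1871 and 438 in treated ones, so that its spread within each group exceeded the difference between them. The median SE was 0.27 for the members and 0.34 for all genes tested.

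**Figure D3:**
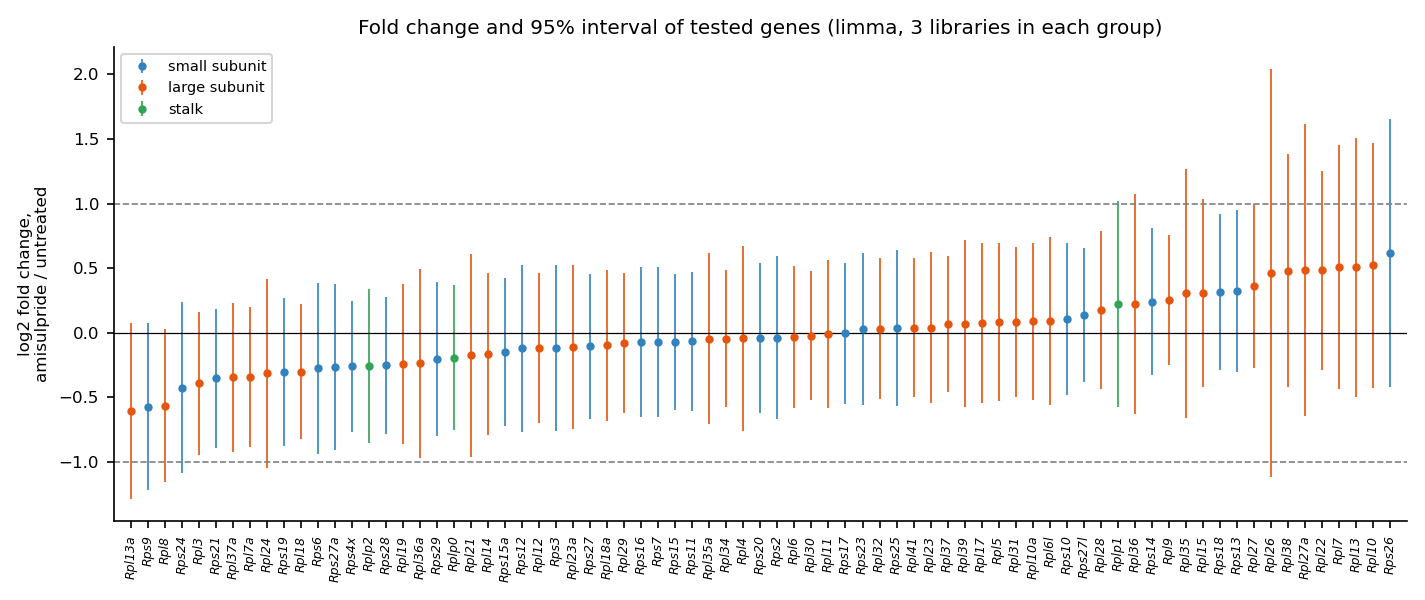
Log2 fold change (y axis, amisulpride over untreated) with its 95% interval from limma for 75 of the 77 tested genes, ordered by fold change along the x axis and coloured by subunit, with dashed lines at 1 and -1. Every interval crosses 0, and the points run from -0.61 (Rpl13a) to 0.62 (Rps26).

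Small subunit proteins bind the messenger RNA and hold the decoding site. Rps29 (ENSMUSG00000034892), the highest of them, had 8645, 6499 and 7996 normalised counts in the untreated SFs and 7100, 7293 and 5685 in treated ones (log2 fold change -0.20). Rps23 (ENSMUSG00000049517), which sits at the decoding centre, had 5887, 6077 and 7576 against 6039, 6265 and 7602, or 6513 ± 925 and 6635 ± 845 (SD, n = 3). Replicate by replicate its values were nearly equal in both groups, and its log2 fold change was 0.03 ± 0.27 (SE), with a 95% interval of -0.56 to 0.61. It was the only member that was higher in the treated library of all 3 replicate numbers.

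Rps9 (ENSMUSG00000006333, chromosome 7, 3703993 to 3706897, plus strand), a protein laid down early in small subunit assembly, had the widest fold change of the lower small subunit genes. Its values were 9058, 4965 and 6723 in untreated SFs and 3965, 4950 and 4687 in treated ones. The groups did not overlap, but the lowest untreated and the highest treated value, both of replicate 2, were nearly equal. The means were 6915 ± 2053 and 4534 ± 510.0, with a log2 fold change of -0.57 ± 0.29 (SE), an unadjusted p-value of 0.076 and an adjusted p-value of 0.516 (limma). Leaving out untreated replicate 1 gave -0.36. Leaving out untreated replicate 2 gave -0.79, and there the unadjusted p-value was 0.0343 and the adjusted one 0.519 (limma).

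Rps26 (ENSMUSG00000025362), a protein at the messenger RNA exit channel that is mutated in Diamond-Blackfan anaemia, had 1850, 1007 and 1262 in untreated SFs and 1173, 1450 and 4985 in treated ones. Its log2 fold change of 0.62, the highest of the 77, came from 1 library, and it was -0.03 without amisulpride replicate 3.

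Large subunit proteins surround the peptidyl transferase centre and the tunnel through which the new chain leaves. Rpl8 (ENSMUSG00000003970, chromosome 15, 76904071 to 76906318, plus strand), which lies close to the peptidyl transferase centre, had 4491, 3125 and 3825 normalised counts in the untreated SFs and 2791, 2941 and 2020 in treated ones. All treated values lay below the untreated ones, with means of 3814 ± 683 and 2584 ± 494. This was the lowest p-value of the 77 genes, with a log2 fold change of -0.56 ± 0.27 (SE), an unadjusted p-value of 0.0596 and an adjusted p-value of 0.487 (limma).

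Rpl13a (ENSMUSG00000074129, chromosome 7, 45125558 to 45128761, minus strand), which also acts outside the ribosome in the GAIT complex that silences inflammatory messenger RNAs, had 2935, 1682 and 1997 in untreated SFs and 1008, 1413 and 1958 in treated ones. The groups overlapped, and the log2 fold change was -0.61 ± 0.31 with an unadjusted p-value of 0.077 and an adjusted p-value of 0.516 (limma). Without amisulpride replicate 3 its log2 fold change was -0.84, with an unadjusted p-value of 0.0122 and an adjusted p-value of 0.223. Leaving out untreated replicate 1 instead gave -0.38 and leaving out amisulpride replicate 1 gave -0.37, with unadjusted limma p-values of 0.269 and 0.286. Rpl3 (ENSMUSG00000060036), another protein near the peptidyl transferase centre, had 1218, 942 and 827 against 659, 901 and 710 (log2 fold change -0.39, unadjusted p-value 0.150, or -0.23 without untreated replicate 1), and its groups overlapped.

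The groups did not overlap for 5 of the 77 genes, all lower in treated SFs. They were 6.49% of the members, against 8.66% of all genes tested that were lower without overlap and 7.8% that were higher. Besides Rps9 and Rpl8 they included Rpl18, with 3228, 2916 and 2758 against 2262, 2324 and 2638, and Rps28, with 2824, 2664 and 2628 against 1928, 2345 and 2595. In Rps28 the nearest values of the groups, 2628 and 2595, were almost equal.

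Rpl27a (ENSMUSG00000046364, chromosome 7, 109519147 to 109522367, plus strand), the large subunit gene with the highest mean outside the stalk, had 12430, 8438 and 10277 normalised counts in the untreated SFs and 8486, 8941 and 38922 in treated ones. Treated replicates 1 and 2 lay within the untreated range, and amisulpride replicate 3 stood 3.13-fold above the highest of the other libraries. The log2 fold change was 0.48 ± 0.51 (SE) with an unadjusted p-value of 0.366 (limma), and -0.24 without that library. Rpl7 (ENSMUSG00000043716) had the same form, with 4795, 5340 and 4052 against 4173, 4789 and 14886 and a log2 fold change of 0.51, which was -0.07 without amisulpride replicate 3. So did Rpl10 (ENSMUSG00000008682), which joins the large subunit late in its maturation, with 1579, 1692 and 1730 against 1446, 1676 and 5637 and log2 fold changes of 0.52 with all libraries and -0.10 without that one.

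In all, 8 of the 77 genes (10.4%) stood at least 1.5-fold above every other library in amisulpride replicate 3, against 9.25% of all genes tested. Besides Rpl10 (3.26-fold), Rpl27a, Rpl7 (2.79-fold) and Rps26 (2.69-fold) they were Rpl13 (2.11-fold), Rpl22 (2.09-fold), Rpl38 (1.94-fold) and Rpl15 (1.69-fold). Rpl13, Rpl38 and Rpl15 were named after their values were seen. Rpl22 (ENSMUSG00000028936), an RNA-binding large subunit protein that restrains its own paralog, had 1531, 1401 and 1419 in untreated SFs and 1278, 1768 and 3693 in treated ones (log2 fold change 0.48, unadjusted p-value 0.194), and Rpl27 (ENSMUSG00000063316) had 1561, 1196 and 1706 against 1423, 1786 and 2663 (0.36, unadjusted p-value 0.234). Without amisulpride replicate 3 the log2 fold changes of Rpl22 and Rpl27 were 0.053 and 0.12. Without amisulpride replicate 1 that of Rpl22 was 0.82, with an unadjusted limma p-value of 0.0371, and that of Rpl27 was 0.57. Without the 5 members highest in amisulpride replicate 3 relative to the next library, an alternative also chosen after seeing the data, the share of the members was 5.26%, 4.08% and 4.46% in untreated SFs and 3.70%, 4.54% and 4.39% in treated ones. Amisulpride replicate 3 then lay within the range of the others. These 5 genes were removed for being high in that library, so a lower share there follows from the choice and no conclusion is drawn from it. Amisulpride replicate 3 was also the least deep of the 5 libraries whose depth could be determined and the one set apart by the first principal component, and the part of either in these values was not tested.

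Of the stalk, Rplp0 (ENSMUSG00000067274) is the base that binds pairs of Rplp1 and Rplp2. Rplp1 (ENSMUSG00000007892), the most abundant of the 80 transcripts, had 19584, 10787 and 14931 normalised counts in the untreated SFs and 15254, 12663 and 25926 in treated ones. The means were 15101 ± 4401 and 17948 ± 7030, and the log2 fold change of 0.22 ± 0.36 (SE) was -0.08 without amisulpride replicate 3. Rplp2 (ENSMUSG00000025508) had 7897, 5447 and 5976 against 5247, 6049 and 4744 (log2 fold change -0.26), and Rplp0 had 5127, 4198 and 3755 against 3423, 3761 and 4207 (-0.19). The groups overlapped for each of the 3 genes, and Rplp1 was the highest of them in every library.

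Several ribosomal proteins have a paralog with a narrow tissue range. Rpl3l, which replaces Rpl3 in heart and skeletal muscle, was at 0 in all 6 libraries, and a count of 0 allows up to 2.50 to 5.37 normalised counts in the 5 libraries of known depth. Rpl10l, a testis paralog of the X-linked Rpl10, was at 0 in 5 libraries and at 4 in amisulpride replicate 3, under the floor of 5.37 there. Rpl39l, the testis paralog of Rpl39, had 10, 9 and 3 in untreated SFs and 9, 4 and 21 in treated ones, above the floor of each library of known depth except amisulpride replicate 2, where 4 lay just under 4.02. These 3 genes did not pass the filter and were the members not tested.

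The partners of these paralogs were all abundant. Rpl39 (ENSMUSG00000079641), a small protein lining the exit tunnel, had 5310, 6039 and 4138 against 4094, 5340 and 7015 (log2 fold change 0.07). Rps27 (ENSMUSG00000090733) had 1675, 1946 and 1934 against 1471, 2242 and 1534 (-0.11), and its p53-responsive paralog Rps27l (ENSMUSG00000036781) had 325, 363 and 447 against 428, 438 and 376 (0.14). Rps4x (ENSMUSG00000031320), encoded on the X chromosome, had 1260, 1057 and 1027 against 867, 1037 and 888 (-0.26). The groups overlapped for all 4.

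The libraries differed in how often they held the highest or the lowest value of a ribosomal protein gene. Untreated replicate 1 was the highest of the 6 libraries for 30 of the 77 genes (39.0%, against 19.4% of all genes tested), and amisulpride replicate 3 for 28 (36.4%, against 24.8%). Amisulpride replicate 1 was the lowest library for 46 genes (59.7%, against 12.1%) and the highest for 0. Amisulpride replicate 3, the highest library for so many, was also the lowest for 8 (10.4%), and its share was the highest for large subunit genes but not for small subunit genes. Summed shares of the library total, which do not depend on the scaling factor of a library, had the same lowest library and the same pair of highest libraries.

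Samples that bear the same replicate number deviated together over all genes tested, so the difference was also taken within each number. The correlation was not computed for the members alone. Their median log2 distance from the median of each gene was 0.18 in untreated replicate 1 and -0.26 in amisulpride replicate 1. In replicate 1 the treated library was lower for 72 of the 77 genes and higher for 5, with a median log2 difference of -0.49. In replicate 2 it was higher for 55 and lower for 22, with a median of 0.18, and in replicate 3 higher for 47 and lower for 30, with a median of 0.17. Over all genes tested, 48.1% to 49.2% were higher in the treated library of each number. On normalised counts the median difference of the members was thus below 0 in replicate 1 and above 0 in replicates 2 and 3. The replicate 3 median depends on the scaling, since normalised counts summed to 3929883 in untreated replicate 3 and 4504242 in amisulpride replicate 3. As shares of the total in replicate 3, small subunit genes held 2.23% of the untreated and 2.04% of the treated library. Large subunit genes held 2.14% and 3.31% of the same libraries.

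**Figure D4:**
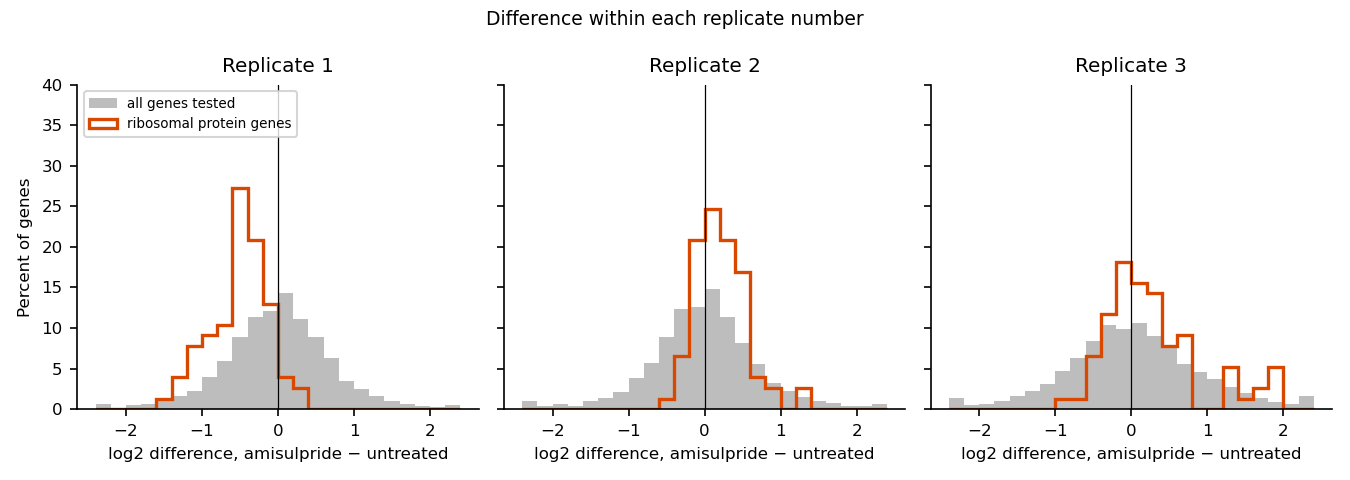
Distribution of the log2 difference between the treated and the untreated library of the same replicate number (x axis) for the 77 ribosomal protein genes (orange outline) and all genes tested (grey), as percent of genes (y axis), with values beyond the ends of the axis placed in the end bins. The orange outline lies mostly to the left of 0 in replicate 1, with a median of -0.49, and slightly to the right in replicates 2 and 3, with medians of 0.18 and 0.17.

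The sign was mixed over the 3 replicate numbers for 67 of the 77 genes. It was lower in all 3 for 9 genes, among them Rpl3, Rpl8, Rpl13a, Rpl18, Rpl29, Rps4x, Rps9 and Rps28, and higher in all 3 for Rps23 alone. The same counts were not made over all genes tested, so whether these differ from the background cannot be said. With the replicate number as a block, the lowest p-value of any member was 0.0585 (limma).

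Ribosomal protein genes are hosts to many small nucleolar RNAs (snoRNAs), which guide the modification of ribosomal RNA and are released from the introns. Within the table, 60 snoRNA or microRNA rows lie inside a member on its strand, and 57 of them, in 30 members, had values above 0. The values of 7 of these rows were within 5% of the host gene in every library, and 22 rows in 15 members reached at least 50% of their host. Snord72 had exactly the values of its host Rpl37, namely 473, 364 and 481 in untreated SFs and 396, 490 and 490 in treated ones. Snora33 had 6523, 3768 and 5579 against 3910, 5601 and 4860, where its host Rps12 had 6522, 3766 and 5579 against 3910, 5601 and 4858. Rows that match their host in this way hold reads that were counted for the host as well, so that host and guest RNA cannot be told apart and a library total holds these reads more than once. Other rows exceeded their host and so held some reads not counted for it. Snord83b stood at 124% of Rpl3 and Snord42a at 105% of Rpl23a over all libraries, both named after their values were seen.

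The nested rows carried the pattern of their hosts. Snora3, within Rpl27a, had 1566, 1082 and 1415 in untreated SFs and 1111, 1325 and 8015 in treated ones, high in amisulpride replicate 3 like the host. Snora70 stood at 50% of Rpl10 in every library to within 1 count, with 2818 in amisulpride replicate 3. In Rpl13a, Snord35a had 2921, 1679 and 1985 against 1001, 1401 and 1943. The row of Flt3l, which encodes the ligand of the receptor Flt3 and overlaps Rpl13a on the same strand, had 2863, 1657 and 1960 against 974, 1368 and 1900. Its reads cannot be told from those of Rpl13a. Together the small RNA rows took 1.90%, 1.41% and 1.52% of untreated libraries and 1.18%, 1.63% and 2.13% of treated ones, and with these rows left out of the total, an alternative chosen after seeing the data, the share of the members differed by -0.0422 percentage points between the groups.

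**Figure D5:**
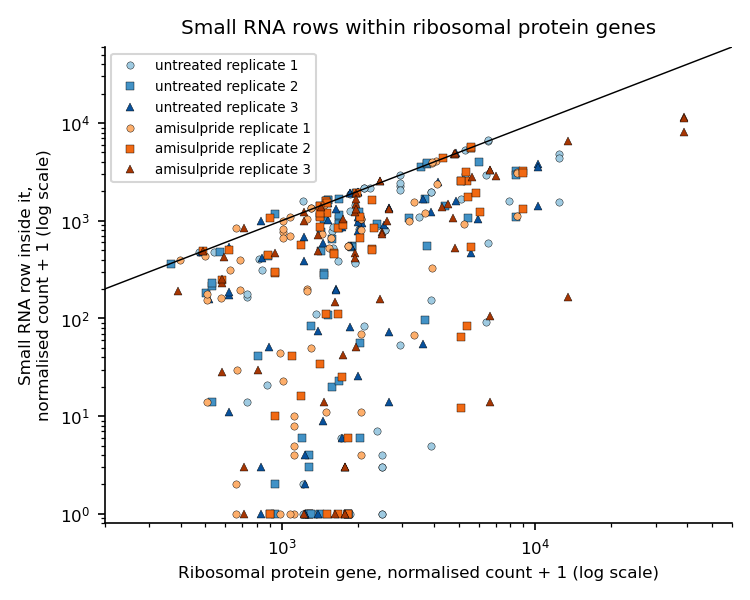
Level of each snoRNA or microRNA row inside a ribosomal protein gene (y axis) against that of its host (x axis), both as normalised count + 1 on log axes, with 1 symbol per library and a line of equality. Of these 60 rows, 7 lie on the line in every library to within 5%, and many others run parallel to it.

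Processed pseudogenes are a second place where these reads can be split. The table held 266 rows named as copies of 59 members, 231 of them above 0 in at least 1 library, and together they took 2.24%, 2.01% and 2.30% of untreated libraries and 1.78%, 2.31% and 2.63% of treated ones. This is close to the share of the small subunit genes, and it was lowest in amisulpride replicate 1 and highest in amisulpride replicate 3, as for the members. The last 200 bases of an annotated protein-coding transcript of each gene, where it had one, were cut into words of 50 bases. These words were looked for along the whole length of the annotated transcripts of other genes. No word was shared for 30 genes, among them Rpl27a, Rpl13a, Rps23, Rplp0 and Rplp2. Rows named as copies stood beside some of these genes all the same. The summed mean of the copies was 10086 normalised counts for Rps23, against 6574 for the gene itself, 3454 against 2016 for Rps16, named after its values were seen, and 624.5 against 14582 for Rpl27a. All words were shared for Rpl10, Rpl36a, Rps12, Rpl9 and Rps27, and 57.0% for Rpl7, 45.0% for Rplp1, 41.7% for Rpl8 and 12.6% for Rps9. For genes with copies, with or without shared words in this window, the level is uncertain to the extent that reads were split between gene and copies, which was not tested.

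Ribosomal proteins that the name rule leaves out were compared as a second set of 8 genes. All 8 had a negative log2 fold change, as did 49.9% of all genes tested, with a median of -0.32, and 0 passed the study thresholds. At an unadjusted p-value under 0.05 stood 2 of them, both paralogs, against 5.77% of all genes tested that were lower. Rpl22l1, the paralog that Rpl22 restrains, had 830, 900 and 1011 in untreated SFs and 523, 498 and 496 in treated ones, with a log2 fold change of -0.85 ± 0.22 (SE), an unadjusted p-value of 0.003 and an adjusted p-value of 0.162 (limma). Every treated value lay below every untreated one, whereas Rpl22 itself had overlapping groups. Rpl7l1 had 215, 202 and 218 against 189, 110 and 125 (-0.62, unadjusted p-value 0.043), and its p-value was over 0.05 with any 1 library left out except amisulpride replicate 1. The log2 fold changes of Rpsa, also known as the laminin receptor, Rack1, a scaffold on the small subunit, Rps3a1, Fau, made as a fusion with a ubiquitin-like protein, and Rpl36al were -0.33, -0.30, -0.13, -0.24 and -0.34.

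Genes that act with the ribosomal proteins were taken as lists. Of 78 mitochondrial ribosomal protein genes, which serve the separate ribosome of that organelle, 33 had a positive and 45 a negative log2 fold change (median -0.04), and 1, Mrpl16, was lower past the study thresholds (-1.005, unadjusted p-value 0.030, adjusted p-value 0.387 in limma), against 3.01% of all genes tested. Mrpl16 did not pass them without untreated replicate 1 (-0.74), untreated replicate 3 (-1.06), amisulpride replicate 2 (-0.83) or amisulpride replicate 3 (-0.72). Of 18 other TOP messenger RNAs, for elongation and initiation factors and similar proteins, 1 was higher past the study thresholds, against 2.69% of all genes tested. This was Pabpc4, a cytoplasmic poly(A)-binding protein, with 123, 125 and 120 in untreated SFs and 172, 228 and 453 in treated ones (1.08, unadjusted p-value 0.008, adjusted p-value 0.241 in limma). Its log2 fold change was 0.69 without amisulpride replicate 3. The list as a whole had a median of 0.02, close to that of the ribosomal protein genes.

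The ribosome assembly list, of nucleolar factors and RNA polymerase I subunits, had 44 genes tested with a median log2 fold change of -0.19, 13 positive and 31 negative. At an unadjusted p-value under 0.05 stood 5 lower and 0 higher (11.4% and 0% of the list, against 5.77% and 5.11% of all genes tested), and 3 were lower past the study thresholds, against 3.01% of all genes tested. Fbl, which methylates ribosomal RNA with snoRNA guides, had 116, 70 and 83 against 65, 47 and 16 (-1.23). Rrp12 had 38, 27 and 29 against 22, 7 and 14 (-1.19), and Nle1, a factor of large subunit maturation, 36, 28 and 38 against 34, 9 and 11 (-1.11). Their adjusted p-values lay between 0.345 and 0.454 (limma). The values of Rrp12 and Nle1 in amisulpride replicates 2 and 3 rest on few reads, since 1 read made 1.34 and 1.79 normalised counts there. Fbl did not pass the study thresholds without untreated replicate 1 (-1.03) or amisulpride replicate 3 (-0.66), nor did Rrp12 without untreated replicate 1 (-1.05), untreated replicate 3 (-1.24) or amisulpride replicate 2 (-0.78). Nle1 passed them with any 1 library left out only in the case of amisulpride replicate 1 (-1.66). Among 19 genes of mTORC1 signalling and TOP control and 9 genes of ribosome recycling, rescue and storage, 0 had an unadjusted p-value under 0.05, with medians of -0.01 and 0.07. The genes with the lowest p-values in the first of these lists were Eif4ebp2, an mTORC1 substrate that restrains initiation, at 0.56 ± 0.28 (SE), and Rps6kb2, a kinase of ribosomal protein S6, at -0.72 ± 0.41. In the second they were Eef2k, which slows elongation, at 0.53 ± 0.37, and Nemf, which acts on stalled large subunits, at -0.55 ± 0.46.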

How the data were processed

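SFs of hTNFtg mice were profiled by QuantSeq 3′ mRNA sequencing on an Ion Proton instrument, with 3 libraries in each of 2 groups. Per the study's methods, the authors mapped reads to mm10 with TopHat2 and the remainder with Bowtie2, counted them over genes with GenomicRanges and normalised them with DESeq through metaseqr; versions were not given in the sources used here, nor was the use of strand in counting. The deposited values are a score, namely reads per gene after division by 1 size factor for each library and rounding by the authors, here called normalised counts. Another 12 columns with values per library on other scales were not used, nor were the authors' own fold changes, p-values and adjusted p-values.

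Because the values are not raw counts, the comparison was made on log2(normalised count + 1), which understates the change of low genes, with limma 3.58.1 (R 4.3.3) and a trended prior. Genes needed at least 10 in at least 3 of 6 libraries. Tests were two-sided, with Benjamini-Hochberg adjustment over all 12614 genes tested, and the fit was tested on simulated data. The labels do not tie replicates to animals, so p-values measure the spread between these libraries only. Depth was estimated from the step that 1 read leaves in low values. Floors are 3 reads and cover counting error only. An exact permutation test of 3 against 3 libraries was not used, since it cannot fall under a p-value of 0.1.

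The deviations of samples with the same replicate number, taken over all genes tested, correlated at 0.229, 0.240 and 0.201. Those with different numbers correlated at -0.149 to -0.0777. The numbers were therefore taken to pair the samples, on the data alone, and the block served as an alternative.

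The members, the gene lists and the tests were chosen with earlier results of these data known. Named members are the 5 with the highest mean, for each direction the 5 of lowest p-value, the stalk genes, paralogs with their partners and genes that failed the filter. From other lists the genes past the study thresholds, or else that of lowest p-value on each side, are named, and all those of ribosomal proteins outside the name rule; a few genes that the rule takes are not reported here, although counts and medians include them. Sequences are from RefSeq and transcript ends from GENCODE M21, both on GRCm38, of which mm10 is the UCSC name. Alternatives were other scalings, filters and pseudocounts, the block, weights per library and each library left out.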

Additional observations from a re-analysis of the deposited data

How the results depend on the processing

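The median log2 fold change of the ribosomal protein genes stayed between -0.13 and 0.09 under every alternative run, and 0 members had an adjusted p-value under 0.05 in any of them. Unadjusted p-values under 0.05 in the lower direction, 0 in the comparison as reported, were reached by 3 genes with equal library totals and 3 with equal totals over genes that are not members (Rpl13a, Rpl8 and Rps9 in both), by 1 with quantile normalisation, 1 with weights per library (Rpl13a in both) and 0 to 1 with a library left out. In the higher direction the count was 0 to 4 with a library left out, with Rpl38, Rpl35 and Rpl22 among the 4 without amisulpride replicate 1, and 0 to 1 past the study thresholds. The replicate block changed no member's call. Over all genes the adjusted count of 36 was 263 with the replicate block, 195 with weights per library, 66 with quantile normalisation, 57 with a pseudocount of 5, 57 without a filter and 0 to 120 with a library left out. The causes of these moves were not tested. The difference in the summed share ranged from -0.538 to 0.434 percentage points with a library left out, within the pooled SD of 0.840.

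Of 528 values of 38 single genes, 481 held their direction and side of the threshold, 24 no longer passed, 2 came to pass and 21 turned in sign, the last all between -0.24 and 0.05. With a library left out, log2 fold changes of the genes that turned ranged over -0.10 to 0.88 for Rpl10, -0.24 to 0.86 for Rpl27a, -0.13 to 0.26 for Rpl39, -0.072 to 0.85 for Rpl7, -0.078 to 0.44 for Rplp1, -0.073 to 0.14 for Rps23 and -0.028 to 1.02 for Rps26, the low ends being those without amisulpride replicate 3. They ranged over -0.30 to 0.0056 for Rps27, -0.33 to 0.037 for Rps3a1 and -0.56 to 0.046 for Rpl36al. Rpl39 was at -0.0039 with equal totals, -0.0046 with equal totals over other genes, -0.020 with quantile normalisation and -0.012 with weights, and Rps23 at -0.045, -0.046 and -0.070 with equal totals, equal totals over other genes and weights. Rps3a1 was at 0.0081 with weights. Leaving out 1 library leaves a group of 2 whose spread is pooled with the other group. The paralogs Rpl3l and Rpl10l lay at 0 or under the floor, and whether their transcripts were absent or too few to detect at this depth was not tested.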
